A study of Mus musculus with 2 samples.

Results

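The microRNAs (miRNAs) miR-191, miR-425 and miR-378a were followed in the adrenal glands of newborn mice. They were read from 3 of the 1973 miRNA gene rows of the count tables, Gm24083, Mir425 and Gm25301. Mir425 was counted under its own symbol and on its own strand. Mir191 and Mir378a had no row in the tables used here, so miR-191 was taken from the opposite-strand counts of Gm24083 and miR-378a from the opposite-strand counts of Gm25301. The rows were selected on measured values of these same libraries, the opposite-strand counts among them, so the levels below are descriptions and no test was made of them.

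The series holds 1 group of 2 libraries, and the labels name no allele and no treatment. Each library was made from the 2 adrenals of 1 pup of the strain B6NCrl at postnatal day 0, and both pups came from 1 pregnancy. The pup with replicate number 1 is called pup 1 here and the other pup 2. Their sex was not collected, and the labels number them as biological replicates but give both the same donor identifier, so the SD over n = 2 measures the spread between these libraries, which could be technical. RNA below 30 nucleotides was sequenced, and the sum of same-strand gene counts was 1131762 in pup 1 and 3327743 in pup 2. Levels are counts divided by that sum and multiplied by 1000000 (CPM).

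miRNAs are short RNAs cut from hairpin precursors, usually from the 5′ arm (5p) or the 3′ arm (3p), and they repress transcripts that pair with their seed, bases 2 to 8. The genes of miR-191 and miR-425 lie side by side and are known to be transcribed together. Both are found in many tissues, and miR-191 is often used as a reference small RNA in PCR assays because its level varies little between tissues. miR-378a is encoded within Ppargc1b, the gene of a coactivator of mitochondrial genes, and is known from metabolically active tissues such as muscle, liver and brown fat. The adrenal has an outer cortex that makes steroid hormones and an inner medulla that releases catecholamines, so each library mixes several cell types.

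The sequences of the cluster of miR-191 and miR-425 are shown because the tables count whole gene rows, and the mature products inside those rows are what the libraries sampled. They are from the RefSeq miRNA table on the build GRCm38.p6, in which 2 of the 3 miRNA genes had an entry. The first lines give the hairpins 5′ to 3′ with the mature arms in capitals, and the other lines give the mature arms with the seed in capitals.
Mir191 hairpin: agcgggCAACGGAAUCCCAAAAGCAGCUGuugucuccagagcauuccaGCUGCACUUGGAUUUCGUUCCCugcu
Mir425 hairpin: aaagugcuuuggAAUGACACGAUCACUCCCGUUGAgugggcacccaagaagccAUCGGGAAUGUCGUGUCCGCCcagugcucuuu
miR-191-5p: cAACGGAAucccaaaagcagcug
miR-191-3p: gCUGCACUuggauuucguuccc
miR-425-5p: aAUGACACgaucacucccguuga
miR-425-3p: aUCGGGAAugucguguccgcc

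The 4 arms of the cluster carry 4 different seeds, so miR-191 and miR-425 do not belong to a seed family together. The 5p arms are both 23 bases long, and the 3p arms are 22 and 21 bases. Each of the 4 mature sequences was found whole in only 1 of the 1005 hairpins of the table. Of the 1738 mature miRNAs in it, 32.0% share a seed with a miRNA of another gene. In the cluster this held for miR-425-5p, whose seed is also that of miR-489-3p. Mir489 was at 0 counts in each library. By the limit of 3 counts, 0 counts leave room for 2.65 CPM in the library of pup 1 and for 0.902 CPM in that of pup 2, for counting error only. For the seeds of miR-191-5p, miR-191-3p and miR-425-3p no other mature miRNA was listed.

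In the GENCODE M21 annotation of mm10, Mir191 (ENSMUSG00000105497.1) lies on the plus strand at chr9:108568319-108568392 and Mir425 (ENSMUSG00000065579.1) on the same strand at chr9:108568777-108568861, 384 bases further on. Both lie in an exon of the long noncoding transcript 4833445I07Rik-201, and Mir191 also lies in an intron of the shorter 4833445I07Rik-202. The GENCODE gene Dalrd3, which codes for a protein with an anticodon-binding domain, starts 1024 bases after Mir425. RefSeq starts Dalrd3 at position 108567484, upstream of both hairpins, so that both fall within that gene. The row Gm24083 (ENSMUSG00000092915.1) is annotated on the minus strand at chr9:108568295-108568414. Its 120 bases hold all 74 bases of the Mir191 hairpin, with 24 and 22 bases on the sides.

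Mir378a (ENSMUSG00000105200.1) lies on the minus strand of chromosome 18 at 61397835 to 61397900, in an intron of all 3 annotated Ppargc1b transcripts that span it. The row Gm25301 (ENSMUSG00000093026.1) lies on the plus strand at 61397813 to 61397925, and its 113 bases hold the whole Mir378a hairpin of 66 bases. The opposite strand of each of these rows is thus the strand of the miRNA it contains. The rows give neither read positions nor arms, so 5p and 3p products were counted together.

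**Figure D1:**
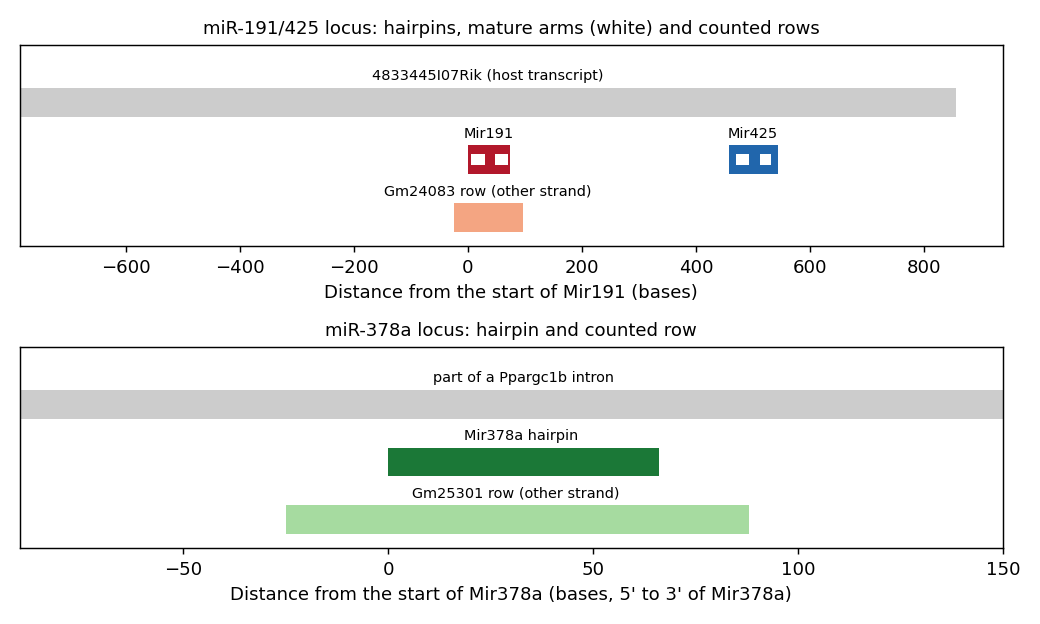
Map of both loci, with the distance in bases from the start of Mir191 (top) and of Mir378a (bottom) on the horizontal axis and a bar for each host, hairpin and counted row. The Gm24083 and Gm25301 rows reach past the hairpins on both sides, and Mir425 starts 384 bases after Mir191 ends.

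All counts of these rows fell on 1 strand. Gm24083 had 4890 opposite-strand counts in pup 1 and 12902 in pup 2, and 0 same-strand counts in both. Gm25301 had 3957 and 10949 opposite-strand counts and also 0 same-strand counts in both. Mir425 had the reverse layout, with 1746 and 5983 same-strand counts and 0 on the opposite strand. The limits of 2.65 and 0.902 CPM given for Mir489 hold for these counts of 0 as well.

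Together Gm24083 and Gm25301 held 22.5% of all opposite-strand counts in pup 1 (exact Clopper-Pearson 95% interval 22.1 to 22.9) and 22.8% in pup 2 (22.5 to 23.0). Gm24083 alone held 12.4% and 12.3%, and Gm25301 held 10.1% and 10.5%. Opposite-strand counts were few, summing over all rows, Gm24083 and Gm25301 included, to 3.48% and 3.15% of the same-strand sum. Only 13 rows reached 10 CPM of them in both pups, and these 13 held 99.9% of the opposite-strand counts in each pup. Gm24083 was the third and Gm25301 the fourth of those by mean level. Outside these rows, 263 of 281 genes whose same-strand mean reached 10 CPM had no opposite-strand count at all.

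In 11 of the 13 rows, the opposite-strand count was above the same-strand count in both pups. Each of these 11 overlaps a miRNA gene that GENCODE M21 places on the other strand and that had no row in the tables used here. For Gm24083 that gene is Mir191 and for Gm25301 it is Mir378a. The 5 other rows with the highest such counts overlap Mirlet7e (Gm25927), Mir409 (Gm24321), Mir299a (Mir299b), Mir376a (Gm25252) and Mir380 (Gm25750).

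**Figure D2:**
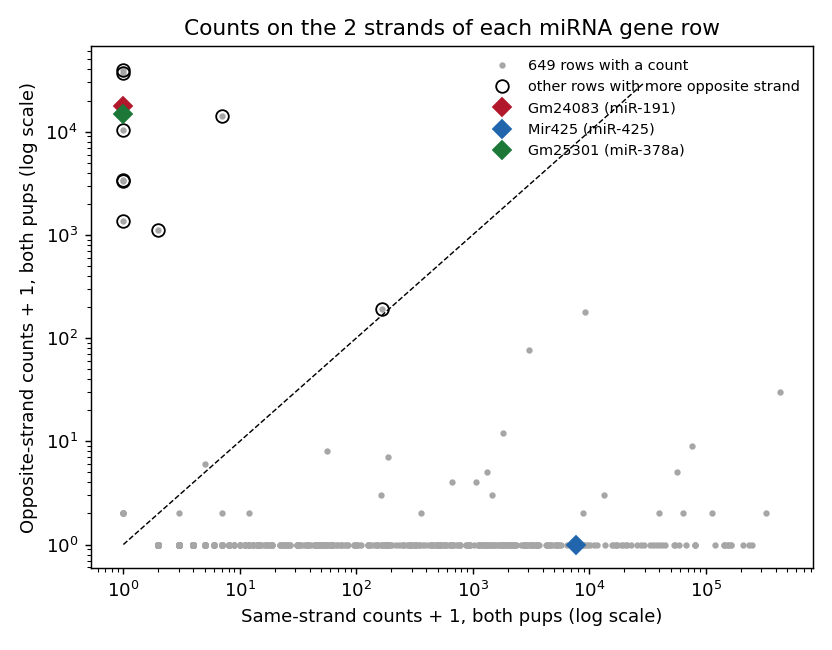
Same-strand counts against opposite-strand counts of the 649 rows with a count, summed over both pups, with 1 added and both axes on a log scale. The dashed line marks equal counts, and Gm24083 and Gm25301 sit on the left edge with 0 same-strand counts while Mir425 sits on the bottom edge with 0 opposite-strand counts.

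miR-191 was the most abundant of the 3 miRNAs. It had 4321 CPM in pup 1 (exact Poisson 95% interval 4200 to 4444) and 3877 CPM in pup 2 (3810 to 3945), a mean of 4099 ± 314 CPM (SD, n = 2). These intervals cover counting error of reads only and leave out differences between libraries. Where no molecular identifiers mark them, reads copied by PCR cannot be told from separate molecules, so the intervals can be too narrow for molecules. Set among the same-strand levels of all rows, the mean of miR-191 would take place 40, with places 39 and 42 in the single pups.

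miR-378a followed with 3496 CPM in pup 1 (3388 to 3607) and 3290.2 CPM in pup 2 (3229 to 3352), a mean of 3393 ± 146 CPM. It would take place 46, with places 42 and 45 in the single pups. The lower pup of miR-191 was above the higher pup of miR-378a, so the ranges did not overlap. Counts of miR-378a per count of miR-191 were 0.809 in pup 1 (0.776 to 0.844) and 0.849 in pup 2 (0.827 to 0.871). Per base of hairpin these ratios were 0.907 and 0.951, although counts of mature miRNAs need not scale with the length of the hairpin.

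miR-425 was the least abundant of the 3, with 1543 CPM in pup 1 (1471 to 1617) and 1798 CPM in pup 2 (1753 to 1844), a mean of 1670.3 ± 180 CPM. Among the same-strand levels its place was 63. All 3 places leave out miRNAs read from the opposite strand of a row, such as Mirlet7e (Gm25927) with a mean of 9652 CPM. The range of miR-425 lay below that of miR-378a in both pups. All 3 levels were above the median of 275 CPM over the 284 genes whose same-strand mean reached 10 CPM. Reads that map to several loci were not counted, which can lower genes with a shared mature sequence in the places and the median. The 3 miRNAs summed to 0.936% of the same-strand total in pup 1 and 0.897% in pup 2, or 0.916% ± 0.0279.

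**Figure D3:**
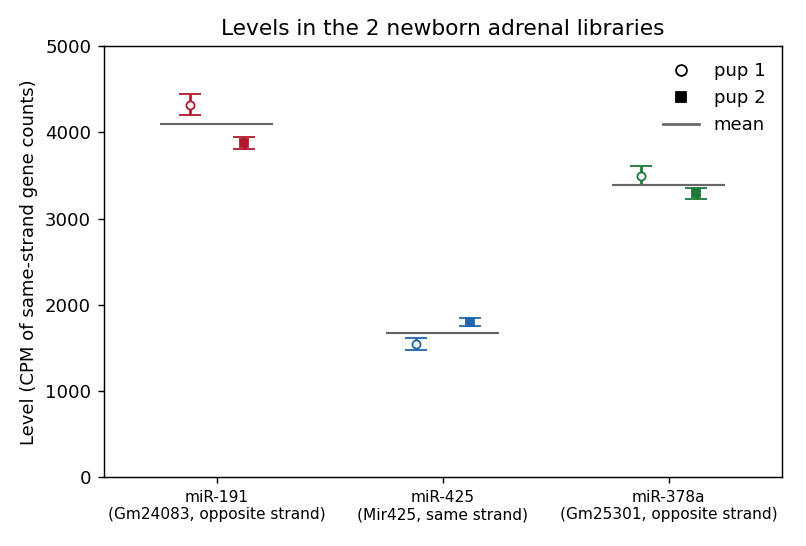
Level in CPM (vertical axis, from 0) of miR-191, miR-425 and miR-378a in pup 1 (open circles) and pup 2 (filled squares), with exact Poisson 95% intervals as bars and the mean of both pups as a grey line. The order miR-191, miR-378a, miR-425 was the same in both pups, and pup 2 was the lower for miR-191 and miR-378a and the higher for miR-425.

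The littermates differed little in these miRNAs. The ratio of pup 2 to pup 1 was 0.897 for miR-191 (exact conditional 95% interval 0.868 to 0.928, log2 ratio -0.16), 0.941 for miR-378a (0.907 to 0.976, log2 ratio -0.09) and 1.17 for miR-425 (1.10 to 1.23, log2 ratio 0.22). These intervals leave out 1, but they cover counting error only, and with 1 library per pup no test of a difference between pups was possible. The threshold of a 2-fold difference was passed by 0 of the 3 miRNAs, beside 5.28% of those 284 genes, or 15 genes. The median log2 ratio of these genes was 0.08, with quartiles at -0.22 and 0.36, so all 3 miRNAs lay between the quartiles. Relative to that median, the log2 ratios were -0.23 for miR-191, -0.17 for miR-378a and 0.14 for miR-425. Scaling by TMM moved the median of the 284 genes by 0.10, and with it the log2 ratio of miR-378a became 0.018, so the direction of its difference depends on the scaling.

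With CPM, most of the 284 genes differed more between the pups than each of these miRNAs did. With TMM the log2 ratio of miR-425 was 0.33, further from 0, so for miR-425 this depends on the scaling. A log2 ratio closer to 0 was found for 42 of the 284 genes in the case of miR-378a, for 76 in the case of miR-191 and for 109 in the case of miR-425. The 284 genes were not matched to the miRNAs by level. Their median was 275 CPM, and counting error weighs more at low counts. With a minimum mean of 100 CPM, 4 of 188 genes passed 2-fold.

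**Figure D4:**
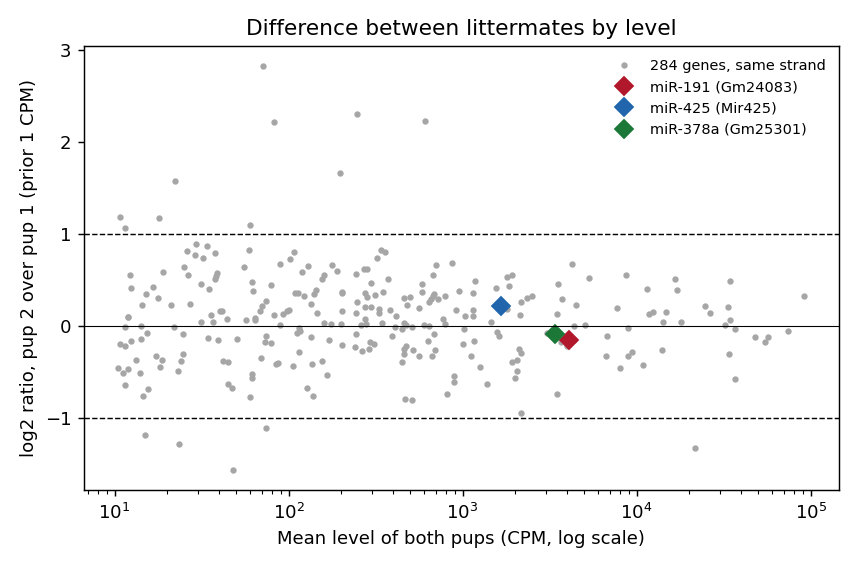
Mean level of both pups in CPM (horizontal axis, log scale) against the log2 ratio of pup 2 over pup 1 (prior 1 CPM) for 284 genes (grey points) and the 3 miRNAs (diamonds). The dashed lines mark 2-fold, and the diamonds at -0.16, -0.09 and 0.22 lie well inside them.

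Although miR-191 and miR-425 are neighbours on 1 strand, they were not counted equally and their difference between pups had opposite signs. There were 2.80 counts of miR-191 per count of miR-425 in pup 1 (2.65 to 2.96) and 2.16 in pup 2 (2.09 to 2.22), a mean of 2.48 ± 0.456. Per base of hairpin these ratios were 3.22 and 2.48, although counts of mature miRNAs need not scale with the length of the hairpin. The counting intervals of the pups did not overlap. miR-191 thus made up 73.7% of the counts of the cluster in pup 1 and 68.3% in pup 2, while the sum of both was 5863 and 5675 CPM.

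The pair was set beside other miRNA genes that neighbour each other on 1 strand, a comparison added after the values had been seen. Genes whose same-strand mean reached 10 CPM were ordered along each strand, and consecutive ones within 10000 bases of each other gave 98 pairs made of 138 genes. Genes with lower counts and genes read from the opposite strand of another row were left out, so another miRNA gene can lie between the members of a pair, as Mirlet7e does between Mir99b and Mir125a. Pairs share genes and are not independent. The levels of the members of a pair differed by a median factor of 5.08, and 67 of the 98 pairs differed by more than the factor of 2.45 between the mean levels of miR-191 and miR-425. Reads that map to several loci were not counted, which can lower genes with a shared mature sequence and widen their pairs. Each arm of miR-191 and miR-425 lies in only 1 hairpin, so these factors do not show that the pair is unusually alike. The log2 ratios of pup 2 over pup 1 differed within a pair by a median of 0.40, beside 0.38 for miR-191 and miR-425. A larger difference was found in 53 of the 98 pairs.

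**Figure D5:**
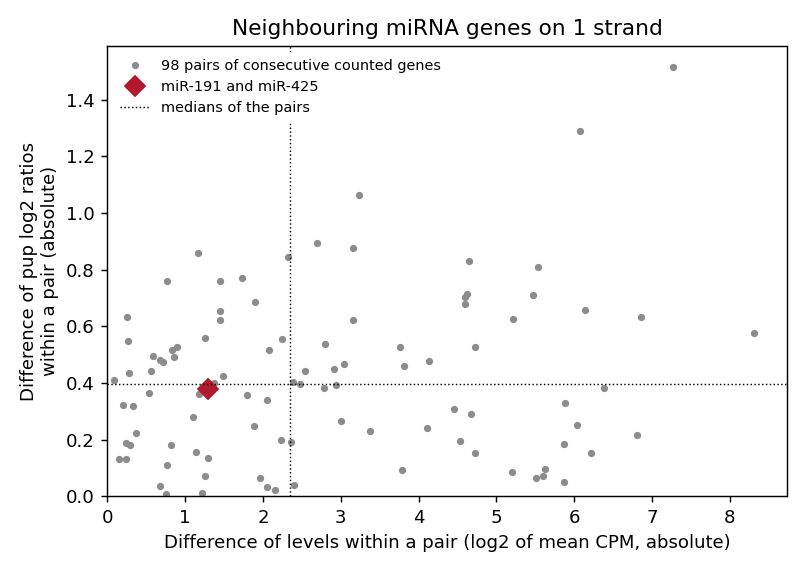
Absolute difference of levels (horizontal axis, log2 of mean CPM) and of the log2 ratios of pup 2 over pup 1 (vertical axis) within 98 pairs of consecutive counted miRNA genes (grey points) and between miR-191 and miR-425 (diamond), with the medians of the pairs as dotted lines. The diamond lies left of the median level difference and just below the median ratio difference.

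Of the miR-378 family, only miR-378a was well above the limit of detection among the 4 genes counted. The other 3 genes named for the family, whose mature sequences resemble that of miR-378a, had 6 counts at most. Mir378b had 0 and 3 counts in pup 1 and pup 2, Mir378c had 0 and 4, and Mir378d had 1 and 6. Together they came to 0.884 CPM in pup 1 and to 3.91 CPM in pup 2. Reads that map to several loci were kept out of all gene rows and made up 34.9% and 32.2% of all reads, so reads that fit more than 1 member of the family are missing from all of these values.

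Markers of tissues known for miR-378a varied in their own ways between the pups. In these bulk libraries, fewer cells of a type and less RNA per cell cannot be told apart. Of 8 miRNA genes known from brown fat, 6 had a mean of at least 10 CPM, and the list summed to 2516 CPM in pup 1 and to 2473 CPM in the other. Most of that was Mir455 with 1230 and 1096 CPM, Mir203 with 710 and 667 CPM, and Mir196a-2 with 277 and 348 CPM. Whether these genes are restricted to brown fat was not tested, so the sum does not show how much brown fat was present. The brown fat regulator Mir193b had 5 and 39 counts, and its neighbour Mir365-1 had 0 and 9. Of the 6 genes at or above that mean, 1 passed 2-fold, beside 5.28% of all 284 genes. It was Mir365-2, with 38 and 44 counts and a log2 ratio of -1.28. Reads common to Mir365-1 and Mir365-2, or to Mir196a-1 and Mir196a-2, were not counted, so these values can miss part of those miRNAs. Mir193b and Mir365-1, below that mean, had log2 ratios of 1.23 and 1.89 on these few counts.

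Of 9 measured miRNA genes of striated muscle, Mir206 reached a mean of 10 CPM, with 82.2 CPM in pup 1 and 411 CPM in its littermate. The list summed to 87.5 CPM in pup 1 and to 423 CPM in pup 2, and Mir1a-1, Mir133a-1 and Mir133a-2 were at 0 counts in both. Mir133a-1 and Mir133a-2 share a mature sequence, as do Mir1a-1 and Mir1a-2, and reads common to several loci were not counted, so neither these counts of 0 nor the sums show how much of these muscle miRNAs was present. Mir122, the main miRNA of hepatocytes, had 2979 CPM in pup 1 and 4081 CPM in pup 2. Both Mir206 and Mir122 were thus higher in pup 2. The part of muscle, liver or brown fat in the level of miR-378a was not tested.

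miR-191 was also set beside other miRNAs that serve as references in PCR assays. Of 13 such genes 12 had a row and 11 had a mean of at least 10 CPM, and 0 of these 11 passed 2-fold, beside 5.28% of all 284 genes. Their median log2 ratio was 0.14, with a range from -0.40 to 0.83. It was above 0 for 9 of them and below 0 for the remaining 2. The median of all 284 genes was also above 0, at 0.08, and only 101 of the 284 lay below the -0.09 of miR-378a. The direction of most reference genes was thus that of most genes. The most abundant were Mir26b with 26551 ± 1867 CPM, Mir423 with 3726 ± 542 CPM and Mir361 with 1933 ± 375 CPM. Mir423 had 3343 CPM in pup 1 and was the higher in pup 2, with 4109 CPM, where miR-191 was the lower. With TMM the log2 ratio of miR-191 was only -0.050. Mir320 was nearly equal, with 642 and 640 CPM. Mir103-1 and Mir103-2, which share their mature sequence, had 4 and 16 counts in pup 1 and 5 and 64 in pup 2, and reads common to both loci were not counted. The same limit holds for reads common to Mir16-1 and Mir16-2, or to Mir24-1 and Mir24-2.

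Erythroid and white blood cell miRNAs were measured because miR-191 is abundant in blood cells. The 5 measured genes of the list, Mir451a, Mir144, Mir486, Mir223 and Mir150, summed to 1142 CPM in pup 1 and to 1295 CPM in pup 2. Among these 5 the leading ones were the myeloid Mir223 with 704 and 883 CPM and the erythroid Mir451a with 261 and 263 CPM. Mir142 of the same list, known from white blood cells, had no row. Read from the opposite strand of Mir142b, as miR-191 was read from Gm24083, it had 499 and 857 CPM and stood between Mir223 and Mir451a. With it the list summed to 1642 and 2152 CPM. The 2-fold threshold was passed by 0 of the 5 genes, beside 5.28% of all 284 genes. Sums of other miRNAs do not show how much miR-191 the blood cells held. The part of blood cells in the level of miR-191 was not tested.

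Of 9 miRNA genes known from the adrenal and from neuroendocrine cells, all 9 had a mean of at least 10 CPM, beside 284 of all 1973 rows. The list was chosen with earlier results of these data known, and no other tissue was measured here. The label of the tissue was thus not tested. The median log2 ratio of the 9 genes was -0.02. Mir375, of neuroendocrine cells, had 34000.3 ± 5070.5 CPM, Mir21a had 14749 ± 1058 CPM and Mir34c had 3681 ± 323 CPM. None of the 9 is restricted to the adrenal. miR-191 was below the first 2 of these and above the other 7.

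Among the 284 genes, those nearest to each miRNA in log2(CPM + 1) of both pups were named by Euclidean distance over the 2 libraries. For miR-191 they were Mir151 with 4281 and 3687 CPM at a distance of 0.07, Mir149 with 4579 and 4110.0 CPM at 0.12, and Mirlet7f-2 with 4361 and 4344 CPM at 0.16. For miR-378a they were Mir17 with 3322 and 3638 CPM at 0.16, Mir34c with 3910 and 3453 CPM at 0.18, and Mir214 with 3146 and 2979 CPM at 0.21. For miR-425 they were Mir1193 with 1519 and 1823 CPM at 0.03, Mir140 with 1678 and 1905 CPM at 0.15, and Mir154 with 1332 and 1769 CPM at 0.21. With 2 libraries this likeness means a similar level in each pup.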

How the data were processed

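Each library has 1 table that the authors deposited, with raw counts of reads for 1973 miRNA gene rows in 3 columns (unstranded, same strand, opposite strand). The build is mm10 with GENCODE M4, per the deposited notes of each sample. The aligner is not given in the sources used here. Rows that name no gene (4 per table) were left out of library sizes. They held 49.6% of the reads of pup 1 and 47.3% of those of pup 2. In every row the unstranded count was the sum of the other 2. The miRNAs and lists were chosen with earlier results of these data known.

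Symbols came from GENCODE M21 by identifier without its version (1894 of 1973 rows). CPM, SD, exact Poisson, binomial and conditional intervals, and log2 ratios (prior 1 CPM) were computed with Python 3.11.15 and scipy 1.17.1. The ratio script was tested on simulated data. Scaling factors came from edgeR 4.0.16 (TMM) and DESeq2 1.42.0, used for scaling only. Named genes were the 3 nearest per miRNA, the 5 other rows with the highest opposite-strand levels, genes sharing a seed, and up to 3 of each list; others were chosen after their values were seen. The counts of the pups over 284 genes differed by more than counting error (chi-square 51515 on 283 degrees of freedom), a comparison that treats every read as an independent molecule. The libraries were kept separate as the labels number them.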

Additional observations from a re-analysis of the deposited data

Results flagged for a closer look

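Opposite-strand counts also reached 10 CPM in both pups in 11 rows outside the miRNAs described above, in a column that the same-strand measurement does not use. Their mean opposite-strand levels were 9652 CPM for Gm25927, 8755 CPM for Gm24321, 3101 CPM for Mir299b, 2086 CPM for Gm25252, 679 CPM for Gm25750 and 678 CPM for Mir142b. Lower levels were found for Mir497b with 283 CPM, Gm24111 with 269 CPM, Mir337 with 43.2 CPM, Mir3074-1 with 40.8 CPM and Mir203 with 17.5 CPM. Each is above the limit that a count of 0 allows. Mir337 and Mir203 had more same-strand than opposite-strand counts. Mir203 was the row of these without a miRNA gene on the other strand in GENCODE M21.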

How the results depend on the processing

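No paired analysis was possible because there is 1 group. Of 49 recomputed values, 40 stayed within 1 SD, within the counting interval or, for counts of genes, within 1.5 times the reported value, and 9 moved. Some of the 40 could not move, so the tally does not measure robustness. With n = 2, the value of either pup always lies within 1 SD of the mean. The unstranded counts of the miRNAs equal the counts used. Library sizes from the unstranded column and from both strands together are the same. Leaving out a pup leaves the value of the other, and the miR-191 to miR-425 ratio then ran from 2.16 to 2.80. With all reads as the library size, levels were 2111 CPM for miR-191, 863 CPM for miR-425 and 1748 CPM for miR-378a. With TMM, log2 ratios were -0.050 for miR-191, 0.33 for miR-425 and 0.018 for miR-378a. The number of genes at least 2-fold apart was 63 with a minimum mean of 1 CPM, 4 with 100 CPM and 85 with any count, and 11 with a prior of 5 CPM. Multi-mapped reads and the missing read positions limit what the counts can show of single arms.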
